A study of Mus musculus with 4 samples.

Results

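The 6 genes described here, Grm2, Grm3, Grm4, Grm5, Grm7 and Grm8, encode metabotropic glutamate receptors, and they were chosen by name from 21938 mouse protein-coding genes. Their chromatin accessibility was read from single-nucleus ATAC-seq (10x Genomics Chromium), in which a transposase cuts open DNA and each cut site is counted once per nucleus. For each gene, the cut sites of a library's own peaks were summed wherever a peak touched the gene or the 2 kb in front of its start. The sum was then scaled to 1000000 cut sites in all peaks of the library (CPM). All nuclei came from Dlx6aCre;Sun1/sfGFP mice at postnatal day 30, with 2 libraries from cortex and 2 from hippocampus. In these mice, cells in which the Dlx6a Cre driver has been active, mostly forebrain inhibitory neurons and their descendants, have their nuclei labelled with green fluorescent protein, and GFP-positive nuclei were taken on a cell sorter. There was no untreated, mutant or GFP-negative group. Nothing in the labels says that the replicates came from separate animals or gives their sex, so the p-values measure only the spread between these libraries.

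Metabotropic glutamate receptors are G protein-coupled receptors that adjust excitability and transmitter release more slowly than the ion channels gated by glutamate. Group I receptors (here mGluR5, from Grm5) couple to Gq and phospholipase C and are mostly postsynaptic. Group II (mGluR2 and mGluR3, from Grm2 and Grm3) and group III (mGluR4, mGluR7 and mGluR8 here, from Grm4, Grm7 and Grm8) couple to Gi and Go and often act on axon terminals. In hippocampal and cortical circuits, mGluR7 is enriched at the excitatory synapses that somatostatin interneurons receive, where the postsynaptic adhesion protein Elfn1 recruits it. The mGluR7 of these synapses lies in the incoming excitatory axon terminal and not in the somatostatin interneuron. Accessibility of a gene is not its RNA level, and no RNA was measured in these nuclei.

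The libraries differed in depth, and peaks had been called in each one separately. Cortex replicate 1 held 117290059 cut sites at a median of 47236 per nucleus, and the other 3 held 32005984 to 72384520 at medians of 7352 to 14917. Cortex replicate 2 had the smallest peak set (61965 peaks over 33.4 Mb) and hippocampus replicate 1 the largest (157220 over 101 Mb), so a weak site could be counted in one library and be listed at 0 in another. Sums over whole libraries, and over the marker groups below at their stricter limit, were therefore also taken over common regions. These are merged peaks that held a peak of all 4 libraries. Sums at the looser marker limit were taken in own peaks only. Summed accessibility of 8 genes of inhibitory neurons in general (pan-GABA genes, such as Gad1, Gad2 and Slc32a1) was 809 to 1279 CPM, with none of the 8 at 0 in any library. A list of 9 oligodendrocyte-lineage genes summed to 98.7 and 80.0 CPM in cortex replicates 1 and 2, and to 168 and 161 CPM in hippocampus replicates 1 and 2. Of these genes 1 and 6 were at 0 in cortex replicates 1 and 2, and 0 in either hippocampus library. Lists of 4 microglia, 5 astrocyte and 5 excitatory-neuron genes summed to 201 to 265, 116 to 156 and 36.9 to 65.0 CPM. Libraries shared 11 to 47 barcodes with each other, at most 1.12% of the smaller library.

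The sequences just upstream of the gene starts are shown because the start was the most accessible common region of every member but Grm4. Each is 5′ to 3′ on the strand of the gene in GRCm38, and the capitals mark GGGCGG, a core of the GC box bound by Sp-family factors, which was searched on both strands. The windows are chr9:106656110-106656359 (minus strand) for Grm2, chr5:9725353-9725602 (minus) for Grm3, chr6:110645262-110645511 (plus) for Grm7, chr6:28135179-28135396 (minus) for Grm8 and chr7:87583918-87584167 (plus) for Grm5. The first 4 were taken from the RefSeq promoter table and that of Grm5 from the genome. For Grm2, Grm3, Grm7 and Grm8 the RefSeq start differs from the GENCODE start used for the gene. The Grm8 window was cut at the GENCODE start, which left 218 of its 250 bases. None of the 5 windows overlapped an annotated exon.
Grm2: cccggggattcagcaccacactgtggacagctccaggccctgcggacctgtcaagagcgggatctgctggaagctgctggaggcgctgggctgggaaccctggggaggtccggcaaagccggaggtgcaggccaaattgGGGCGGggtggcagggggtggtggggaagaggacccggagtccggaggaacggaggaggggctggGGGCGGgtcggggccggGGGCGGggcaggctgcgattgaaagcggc
Grm3: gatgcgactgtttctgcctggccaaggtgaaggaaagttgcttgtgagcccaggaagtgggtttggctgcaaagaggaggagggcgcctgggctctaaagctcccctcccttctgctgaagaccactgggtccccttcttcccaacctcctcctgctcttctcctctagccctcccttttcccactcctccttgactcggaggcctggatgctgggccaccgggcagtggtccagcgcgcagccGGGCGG
Grm7: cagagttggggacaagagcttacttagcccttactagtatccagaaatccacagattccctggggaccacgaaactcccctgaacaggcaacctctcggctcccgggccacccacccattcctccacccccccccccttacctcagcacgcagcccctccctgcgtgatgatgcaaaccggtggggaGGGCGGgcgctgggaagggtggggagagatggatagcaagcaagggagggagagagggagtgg
Grm8: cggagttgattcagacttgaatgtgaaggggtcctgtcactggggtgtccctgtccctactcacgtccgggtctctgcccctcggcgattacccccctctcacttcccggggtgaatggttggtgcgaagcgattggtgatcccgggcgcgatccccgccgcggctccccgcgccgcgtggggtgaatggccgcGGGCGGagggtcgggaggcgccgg
Grm5: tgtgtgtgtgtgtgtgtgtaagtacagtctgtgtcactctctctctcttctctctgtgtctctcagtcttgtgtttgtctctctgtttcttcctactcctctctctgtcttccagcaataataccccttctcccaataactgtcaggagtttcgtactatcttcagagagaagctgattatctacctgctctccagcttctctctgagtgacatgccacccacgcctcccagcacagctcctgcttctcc
The Grm2 window held 3 GGGCGG matches, those of Grm3, Grm7 and Grm8 held 1 each, and that of Grm5 held 0. In all, 32.7% of 32851 RefSeq promoters held the hexamer in the 250 bases upstream of their start. The middle 300 bases held it in 8.80% of 185260 accessible regions. The 4 windows with a match were 62.0% to 71.2% G and C, against 48.4% for Grm5 and a median of 52.4% for all promoters. The Grm8 window held 24 CpG dinucleotides in 218 bases and the Grm5 window 2 in 250. TAATTA, the core bound by many homeodomain factors such as the Dlx proteins, was in none of the 5 windows and in 4.84% of all promoters.

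Among the 6 genes, Grm7 and Grm4 carried the most cut sites and Grm2 the fewest, whereas per length of gene Grm2 stood first, Grm4 second and Grm8 last. The plot of CPM by library shows the levels and the regions they came from. Grm5 (chr7:87584168-88134907, plus strand, 551 kb), the group I member, had 110 and 59.9 CPM in cortex replicates 1 and 2 and 128.6 and 87.1 CPM in hippocampus replicates 1 and 2. The cortex mean was 85.0 ± 35.4 CPM and the hippocampus mean 108 ± 29.3 CPM (SD, n = 2). The 2 brain regions overlapped, and the libraries with the fewest peaks in the gene (5 in cortex replicate 2, 12 in hippocampus replicate 2, against 20 and 25) were the lower of each pair.

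Of the group II genes, Grm2 (chr9:106643095-106656082, minus strand, 13.0 kb) had 27.0 and 35.1 CPM in cortex and 33.8 and 29.6 CPM in hippocampus, in the order of replicates 1 and 2. In own peaks it was the steadiest of the 6, with 1.30 times between its highest and lowest library, but in common regions this ratio was 1.63, above that of 4 of the other 5. Its means in own peaks were 31.0 ± 5.76 and 31.7 ± 2.96 CPM (SD, n = 2). Grm3 (chr5:9485541-9725170, minus, 240 kb) had 88.7 and 53.7 CPM in cortex and 47.3 and 50.5 CPM in hippocampus. Both cortex libraries stood above both hippocampus libraries, the only member for which the groups did not overlap, and the means were 71.2 ± 24.8 and 48.9 ± 2.30 CPM. Of 16326 genes tested, 21.8% did not overlap between the groups in one direction or the other.

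Of the group III genes, Grm4 (chr17:27422387-27521403, minus strand, 99.0 kb) had 86.5 and 143.8 CPM in cortex and 139.9 and 131.6 CPM in hippocampus. Cortex replicate 1 was the low library for this gene, while for Grm3 and Grm7 it was the high one. Grm7 (chr6:110645581-111567230, plus, 922 kb), which encodes the receptor of the presynaptic active zone, had 171.3 and 116.8 CPM in cortex and 148.4 and 140.7 CPM in hippocampus. Its means were 144.0 ± 38.5 and 144.5 ± 5.46 CPM (SD, n = 2), so both hippocampus libraries lay between the 2 cortex libraries. Grm8 (chr6:27275119-28135178, minus, 860 kb) had 61.9 and 22.2 CPM in cortex and 67.1 and 59.4 CPM in hippocampus. Cortex replicate 2 was low on its own, with 3 peaks in the gene against 15 to 23 in the other libraries, and the highest library had 3.02 times the value of the lowest.

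**Figure D1:**
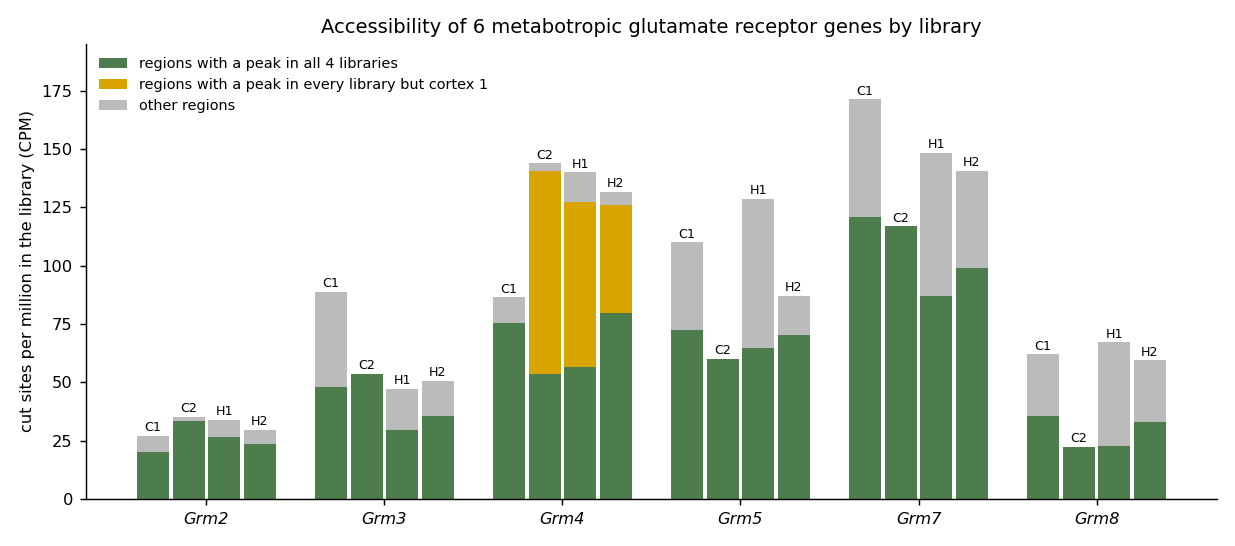
Accessibility (CPM, vertical axis) of each of the 6 genes in cortex replicates 1 and 2 (C1, C2) and hippocampus replicates 1 and 2 (H1, H2), 1 bar per library, split by the regions the cut sites fell in. Grm4 is the only gene with a yellow share, from regions with a peak in every library but cortex replicate 1 (86.9, 70.4 and 46.0 CPM in C2, H1 and H2).

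For values per kb, the length was that of the gene and the 2 kb in front of its start. The mean over the 4 libraries was then 2.09 CPM per kb for Grm2, 1.24 for Grm4, 0.249 for Grm3, 0.174 for Grm5, 0.156 for Grm7 and 0.0610 for Grm8. On that scale Grm2 stood at percentile 69.5 of 17161 genes with any cut site, whose median was 1.10 CPM per kb, and Grm8 stood at percentile 5.61. Of the neighbours Grm3, Grm5 and Grm7, with SDs of 0.0799, 0.0537 and 0.0243 CPM per kb over the 4 libraries, Grm5 overlapped both others, while every Grm3 value (0.196 to 0.367) lay above every Grm7 value (0.126 to 0.185). Grm5, Grm7 and Grm8 are among the longest genes of the genome, at percentile 99.1 or above of gene length, and most of their length held no peak.

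Where in the gene the cut sites fell also set the members apart. A peak that touched the 2 kb on either side of a gene start was counted whole, here and below, as within 2 kb of it. The share within 2 kb of the gene start was 58.7% to 89.9% in Grm2, 39.5% to 73.9% in Grm3, 35.0% to 84.2% in Grm5, 25.4% to 42.9% in Grm7 and 17.4% to 64.6% in Grm8, but only 0% to 6.69% in Grm4. In Grm3, Grm5, Grm7 and Grm8 nearly all other regions were intronic. Merging peaks over the 4 libraries gave 38 regions in Grm7, of which 7 were common and 14 were found in a single library, and 29, 27, 22, 17 and 5 regions in Grm5, Grm8, Grm4, Grm3 and Grm2. The start region of Grm7 (chr6:110644767-110650175) was the strongest common region of all members, with 63.8 and 50.1 CPM in cortex and 38.8 and 53.3 CPM in hippocampus. That of Grm5 (chr7:87583806-87587512) was close to equal in all libraries, at 51.8, 50.5, 45.0 and 44.0 CPM in the order cortex replicates 1 and 2 and hippocampus replicates 1 and 2. In Grm4 the strongest common region (chr17:27509973-27514555) overlapped an annotated noncoding exon 9.14 kb into the gene, with 39.5, 15.5, 16.4 and 37.6 CPM in the same order.

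**Figure D2:**
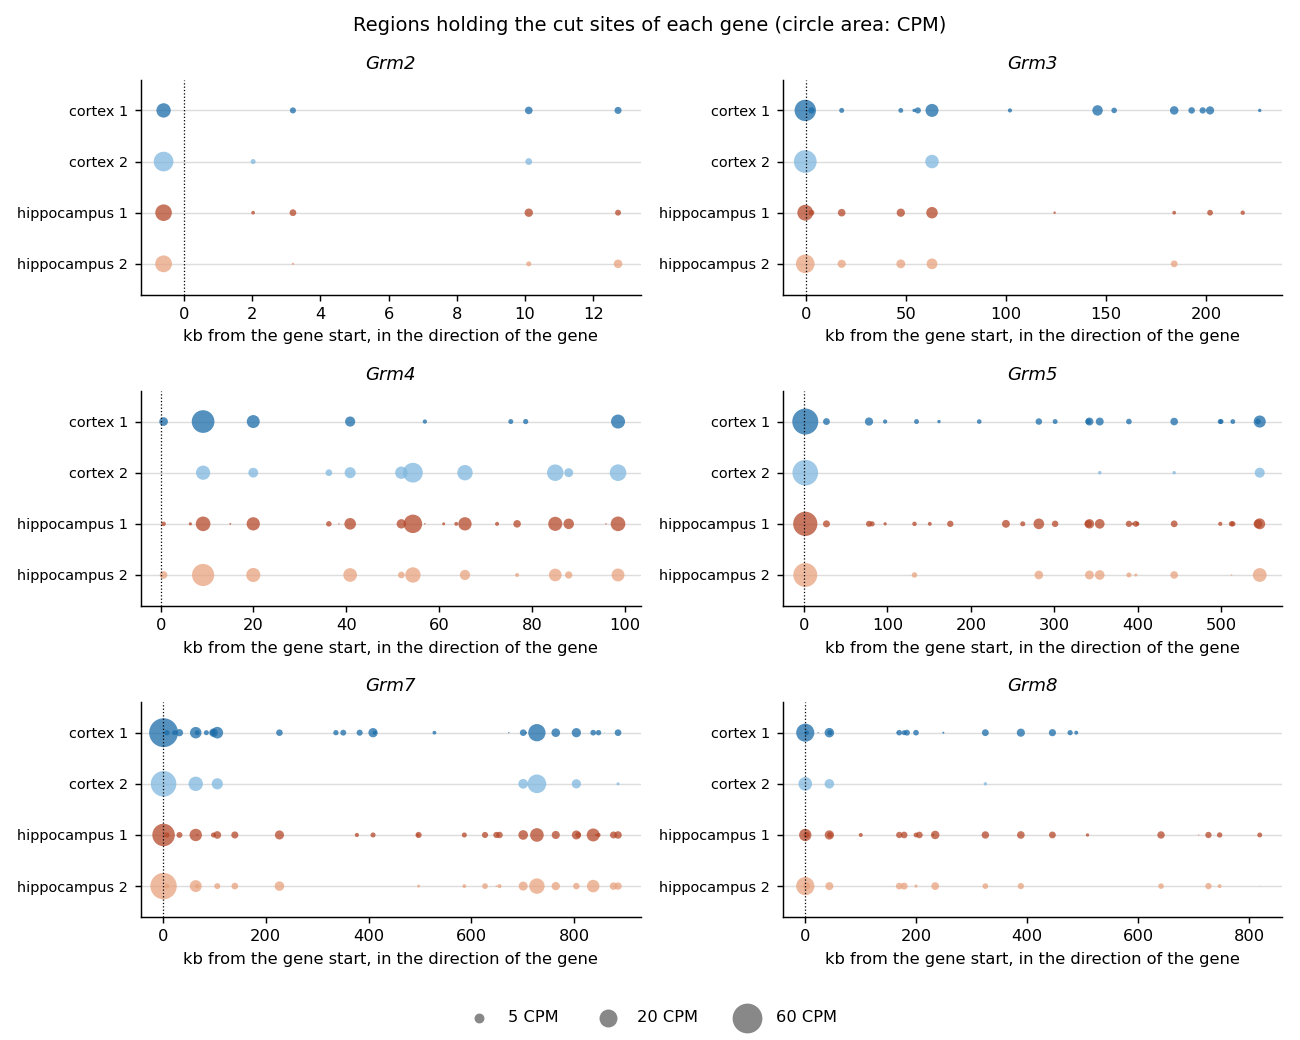
Position of every region that held cut sites of a gene, in kb from the gene start in the direction of the gene (horizontal axis), in 1 row per library, with the area of a circle proportional to its CPM. In 5 genes the largest circles sit at the start (dotted line), whereas the Grm4 circles are spread along the gene, and cortex replicate 2 has the fewest circles in Grm8 (3 peaks).

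Restricted to common regions, the libraries lay closer together for every member but Grm2. The ratio of the highest to the lowest library fell from 3.02 to 1.61 in Grm8 and from 2.15 to 1.21 in Grm5. It fell less in Grm3 (1.88 to 1.83), Grm4 (1.66 to 1.50) and Grm7 (1.47 to 1.39). Grm5 then had 72.4, 59.9, 64.8 and 70.2 CPM, in the order cortex replicates 1 and 2 and hippocampus replicates 1 and 2, and Grm7 had 121, 117, 87.1 and 99.1 CPM. Grm2 had 20.3, 33.2, 26.5 and 23.6 CPM, further apart than in own peaks. Grm8 had 35.7, 22.2, 22.5 and 33.1 CPM, so cortex replicate 2 no longer stood alone. Grm3 kept its non-overlapping groups, with 48.0 and 53.7 CPM in cortex and 29.4 and 35.7 CPM in hippocampus. Grm7 became non-overlapping in the same direction on this scale, on which 16.3% of 14645 genes tested had both cortex libraries above both hippocampus libraries. Grm4 had 75.3, 53.4, 56.7 and 79.9 CPM, which turned the order of the cortex replicates around.

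The turn in Grm4 came from 5 intronic regions, all of which had a peak in cortex replicate 2 and both hippocampus libraries and none in cortex replicate 1. They carried 86.9 CPM in cortex replicate 2, 70.4 CPM in hippocampus replicate 1 and 46.0 CPM in hippocampus replicate 2, and 0 such regions lay in the other 5 genes. The strongest was chr17:27465960-27468144, with 29.9, 26.3 and 18.1 CPM. A stretch of 300 bases of it (chr17:27467291-27467590, GRCm38, minus strand, intron of Grm4) is printed to show the repeat that 4 of the 5 regions hold, with runs of at least 8 alternating C and A bases in capitals.
Grm4 intron: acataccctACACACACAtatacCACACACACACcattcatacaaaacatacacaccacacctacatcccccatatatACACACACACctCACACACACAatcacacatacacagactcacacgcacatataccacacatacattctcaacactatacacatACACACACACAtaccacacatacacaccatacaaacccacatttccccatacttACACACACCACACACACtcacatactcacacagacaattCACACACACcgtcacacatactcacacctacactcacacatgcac
Such runs made up 25.7% of this stretch and 10.9% of the whole region. In 4 of the 5 regions 50.0% to 63.6% of the bases were soft-masked as repeats and 10.1% to 19.9% lay in alternating C-A or T-G runs, while the fifth (chr17:27432904-27434056) had 12.7% and 3.12%. The same held across the genome: of 6112 regions with a peak in every library but cortex replicate 1, 69.7% had at least 10% of their bases in such runs, against 1.69% of the 46698 common regions and 1.18% of the 30380 regions lacking a peak in cortex replicate 2 alone. The part of this repeat content in the Grm4 values was not tested. Own-peak values of Grm4 over all 4 libraries therefore set a library without these regions beside 3 that have them, while the common-region values leave them out in every library.

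**Figure D3:**
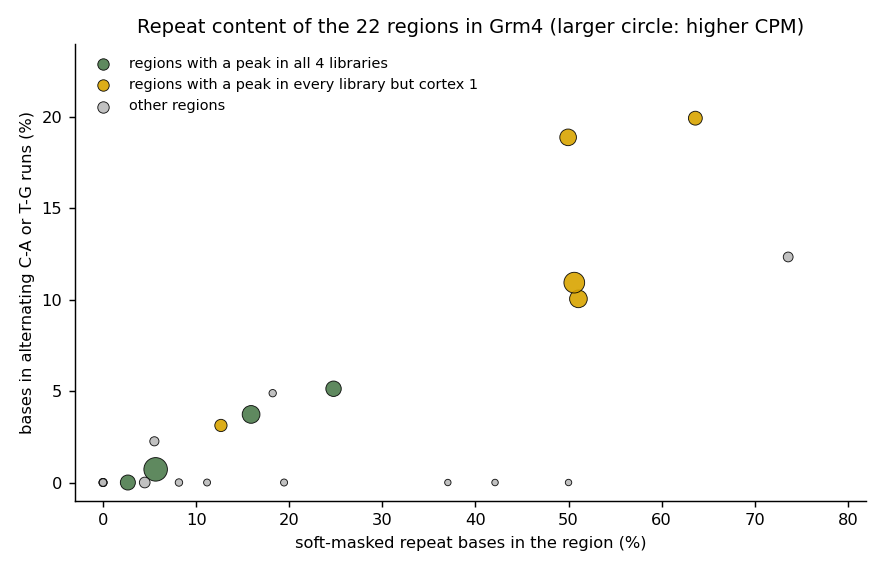
Share of soft-masked repeat bases (horizontal axis, percent) and of bases in alternating C-A or T-G runs (vertical axis, percent) in the 22 regions of Grm4, with circle size growing with the highest CPM of the region in any library. Of the 5 yellow circles, the regions absent from cortex replicate 1, 4 lie at 50.0% to 63.6% masked bases and 10.1% to 19.9% run bases.

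Hippocampus was compared with cortex over all nuclei of each library to ask whether the receptor genes differ between the 2 structures. The share of nuclei in the marker groups described below also differed between them, and its part in the values was not tested. None of the 6 genes passed the test at the gene level (edgeR quasi-likelihood, 2 against 2 libraries, 0.123% of 16326 genes called). The log2 fold change of hippocampus over cortex was 0.34 ± 0.32 (SE) for Grm5, 0.03 ± 0.35 for Grm2, -0.54 ± 0.35 for Grm3, 0.24 ± 0.30 for Grm4, 0.00 ± 0.29 for Grm7 and 0.59 ± 0.34 for Grm8, each at adjusted p = 1.00. In simulated data of this design the same fit called 0 of 100 genes changed 2-fold and 0 of 100 changed more. The simulation gave every gene the common spread of the fit (biological CV 0.634), so it does not give the power for these 6 genes. A gene that did not pass here is not shown to be alike in both structures. The median of the 6 was 0.13, and that of all genes was -0.10. The 95% interval for Grm8 ran from -0.09 to 1.26 and that for Grm3 from -1.22 to 0.13, so differences of such sizes could not be told from the spread between libraries. Leaving out nuclei with more thinned cut sites in the oligodendrocyte list than in the pan-GABA list (2.12% to 11.2% of a library) gave -0.60 ± 0.34 for Grm3 and 0.60 ± 0.37 for Grm8, and 0 of 6 passed. In common regions with TMM normalization 0 genes were called, and Grm3 had a log2 fold change of -0.46 ± 0.16 at adjusted p = 1.00.

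Grm8 was called once cortex replicate 1 was left out, with a log2 fold change of 1.51 ± 0.45 at adjusted p = 0.0229 (edgeR, 4.31% of genes called in that fit). The comparison then set 22.2 CPM against 67.1 and 59.4 CPM, with the peaks of the shallow cortex replicate 2 as the only cortex value. In common regions the same 3 libraries had 22.2, 22.5 and 33.1 CPM, so the gap narrowed to hippocampus replicate 2 and was nearly gone to hippocampus replicate 1. At the level of single common regions, 0 of 22 member regions passed, where 0.589% of 46698 regions did. The median log2 fold change of all common regions was -0.17, and with TMM normalization it was -0.02 and 0 regions were called. The lowest p belonged to an intronic region of Grm7, 106 kb from the start (chr6:110751454-110752184), with 10.4 and 9.65 CPM in cortex and 4.50 and 2.73 CPM in hippocampus. Its log2 fold change was -1.47 ± 0.39 (edgeR, adjusted p = 0.0892). The 2 cortex libraries stood above the 2 hippocampus libraries there, but the region did not pass the adjustment. The share of all regions with this order is not given here.

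Among nuclei, the share with any cut site in a gene followed depth, so it was taken after thinning each nucleus to 5000 cut sites. Grm7 then had a cut site in 52.1% and 32.3% of nuclei in cortex replicates 1 and 2, and in 43.0% and 41.1% in hippocampus replicates 1 and 2. Without thinning its shares were 90.5%, 35.5%, 54.7% and 58.4% in that order. The thinned share was 11.1% to 13.0% for Grm2 in all 4 libraries. For Grm8 it was 25.2% and 7.65% in cortex and 23.2% and 21.2% in hippocampus, and cortex replicate 2 was again the low library. Unthinned shares were 13.8% to 43.0% for Grm2 and 9.40% to 69.5% for Grm8. For Grm4 the thinned share was 31.2% in cortex replicate 1 and 39.2% to 41.2% in the other 3.

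To describe the receptors by interneuron class, nuclei were grouped by their cut sites in 3 marker genes: Sst (somatostatin) and Pvalb (parvalbumin), which mark the main classes from the medial ganglionic eminence, and Adarb2, which marks the classes from the caudal ganglionic eminence. A nucleus joined the group of a marker when at least 2 of its 5000 thinned cut sites lay in that gene and 0 lay in the other 2. The Sst groups held 17 to 64 nuclei per library, the Pvalb groups 49 to 134 and the Adarb2 groups 90 to 928. The unthinned counts of their nuclei were summed within each library. The Adarb2 groups held 3.82% and 3.98% of nuclei with 5000 or more cut sites in cortex replicates 1 and 2. In hippocampus replicates 1 and 2 they held 19.8% and 8.42%. The Pvalb groups held 5.69%, 3.89%, 1.73% and 1.63% in that order, and the Sst groups 1.19%, 2.02%, 0.534% and 0.566%. Membership was read in each library's own peaks, so these shares also depended on which marker peaks a library had. Over all nuclei, Adarb2 had a log2 fold change of hippocampus over cortex of 1.51 ± 0.34 in own peaks (edgeR, adjusted p = 0.0085). In common regions with TMM normalization it was 0.46 ± 0.20 and did not pass. Pvalb and Sst had -0.88 and -1.13 in own peaks and -0.68 and -0.93 in common regions, and neither passed. The part of the peak sets in the shares was not tested. The comparison of hippocampus with cortex over all nuclei could not be told apart from a difference in mix. These groups are defined by accessibility at 1 gene and are not cell types. Because a nucleus had few cut sites in a marker, which nuclei entered a group also depended on the random draw of the 5000. The groups were therefore formed again from 10 other draws, chosen after the data were seen, which shared a median of 23.8% (Sst), 32.7% (Pvalb) and 45.3% (Adarb2) of the nuclei of the groups used here. Other markers set them apart in the same sense as the names. Lhx6, Sox6 and Satb1, transcription factors of the medial lineage, were higher in the Sst group than in the Adarb2 group (log2 fold change 0.74, 0.65 and 0.89) and in the Pvalb group (0.55, 0.85 and 0.59). Prox1, a factor of the caudal lineage, was lower by 1.41 and 0.89. In each of the 2 comparisons 3 of 6 medial genes were called higher, and 2 and 4 of 5 caudal genes lower. Between Sst and Adarb2 all 4 genes kept their direction in 10 of 10 other draws, and Lhx6, Sox6, Satb1 and Prox1 passed in 7, 8, 9 and 6 of them.

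None of the 6 receptor genes passed the test between these groups in the draw shown (edgeR with library as a block). Of 14680 genes tested, 1.22% were called between Sst and Adarb2, 1.01% between Pvalb and Adarb2 and 1.27% between Sst and Pvalb. The members' median log2 fold changes were 0.11, -0.03 and 0.06, and those of all genes were -0.02, -0.01 and -0.01. In the 10 other draws 41 to 230, 104 to 240 and 112 to 248 genes were called in the same comparisons. At this limit, in a gene's own peaks, Grm3 passed between Pvalb and Adarb2 in 1 draw and no other member passed in any of the 3 comparisons. The plot of CPM by marker group gives each library's values.

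**Figure D4:**
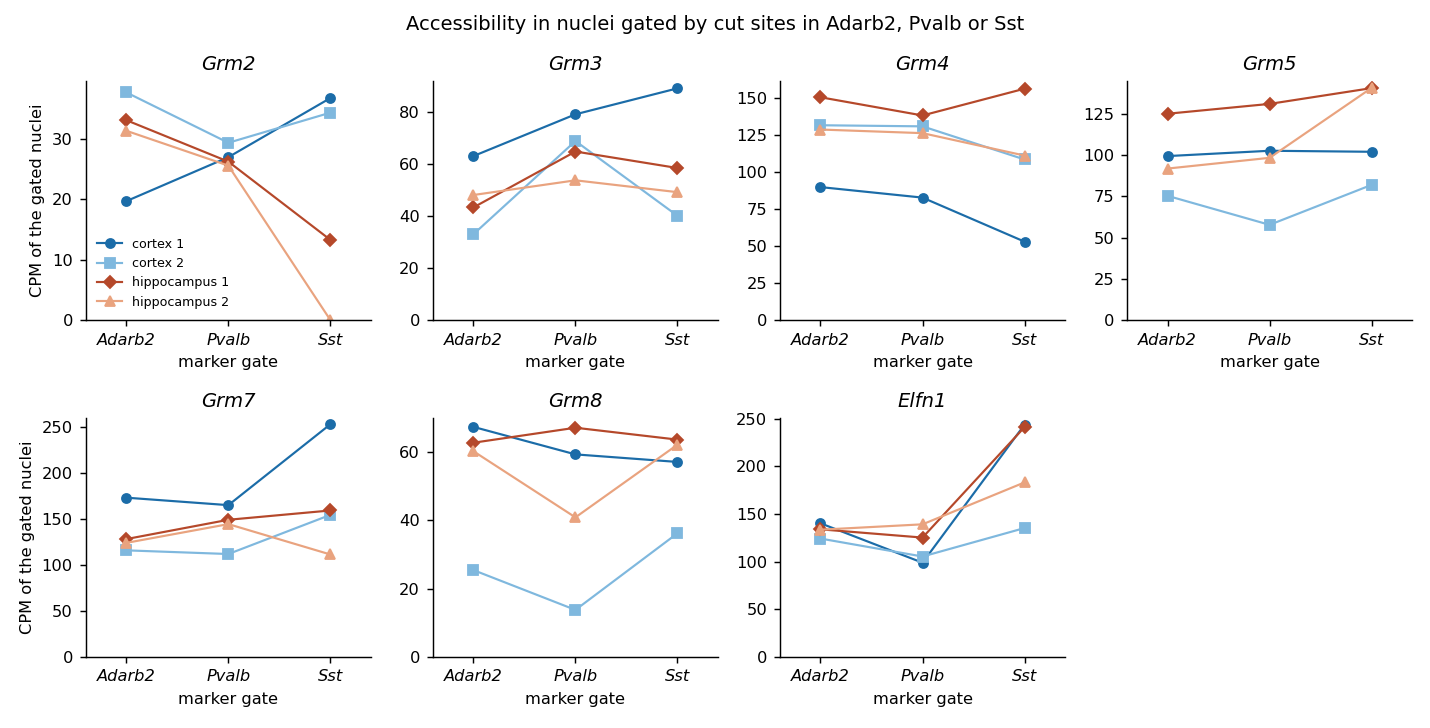
CPM (vertical axis) of the 6 receptor genes and of Elfn1 in nuclei grouped by cut sites in Adarb2, Pvalb or Sst (horizontal axis), 1 line per library. For Elfn1 all 4 lines are highest at Sst, Grm3 lies higher at Pvalb than at Adarb2 in all 4 lines, and Grm2 falls to 0 CPM at Sst in hippocampus replicate 2.

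Grm7 leaned to the Sst group in the draw shown, as other members did in some of the comparisons given below. It had 253, 154, 159 and 111 CPM in the Sst group of cortex replicates 1 and 2 and hippocampus replicates 1 and 2, 165, 112, 149 and 144 CPM in the Pvalb group, and 173, 116, 128 and 124 CPM in the Adarb2 group. The Sst group was the highest in 3 libraries and the lowest in hippocampus replicate 2, where it rested on 34 cut sites. The log2 fold change of Sst over Adarb2 was 0.37 ± 0.13 at adjusted p = 0.179 (edgeR), and that of Sst over Pvalb was 0.31 ± 0.13 at adjusted p = 0.341.

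With a looser limit of 1 or more marker cut sites, which enlarged the Sst groups to 68 to 166 nuclei, Grm7 was higher in the Sst group than in the Adarb2 group in 4 of 4 libraries. It then had 207, 133, 190 and 154 CPM in the Sst group, 158, 110, 162 and 151 CPM in the Pvalb group, and 169, 111, 139 and 127 CPM in the Adarb2 group. The log2 fold change was 0.34 ± 0.07 at adjusted p = 0.0012 (edgeR, 4.74% of 15927 genes called), about as large as under the stricter limit but with a smaller error. Leaving out each library in turn kept it between 0.30 and 0.36 and the adjusted p between 0.0028 and 0.0417. Sst over Pvalb gave 0.25 ± 0.07 at adjusted p = 0.0226, with 5.82% of genes called, but without cortex replicate 1 it was 0.18 ± 0.09 at adjusted p = 0.390. In common regions, at the stricter limit, Sst over Adarb2 was 0.37 ± 0.15 at adjusted p = 0.245, with 1.38% of genes called. The call for Grm7 over Adarb2 thus held at the looser limit in its own peaks and at neither of the other settings. In the 10 other draws the looser limit gave log2 fold changes of 0.26 to 0.38 over Adarb2, with the call in 10 of 10, and of 0.18 to 0.36 over Pvalb, with the call in 6 of 10. At the stricter limit Sst over Adarb2 ranged from 0.16 to 0.45, with the call in 0 of 10, and in common regions from 0.17 to 0.52, with the call in 2 of 10.

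The start region of Grm7 carried the same lean. It had 104, 70.5, 47.7 and 45.8 CPM in the Sst group, in the order cortex replicates 1 and 2 and hippocampus replicates 1 and 2, against 67.1, 43.3, 33.7 and 49.8 CPM in the Adarb2 group. The log2 fold change was 0.53 ± 0.20 at adjusted p = 0.135 (edgeR), so it did not pass. In the other draws it ranged from -0.081 to 0.54 and was above 0 in 8 of 10. Hippocampus replicate 2 again had the order of the other libraries turned around.

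Grm3 leaned to the Pvalb group over the Adarb2 group. At the stricter limit its Sst value was above its Pvalb value in 1 of 4 libraries. Grm3 was also higher in the Sst group than in the Adarb2 group in 4 of 4 libraries, and in 2 of 4 at the looser limit. It had 78.9, 68.7, 64.7 and 53.6 CPM in the Pvalb group of cortex replicates 1 and 2 and hippocampus replicates 1 and 2, against 62.9, 32.9, 43.2 and 48.0 CPM in the Adarb2 group and 88.9, 40.0, 58.3 and 49.1 CPM in the Sst group. The Pvalb value was above the Adarb2 value in 4 of 4 libraries, with a log2 fold change of 0.49 ± 0.17 at adjusted p = 0.178 (edgeR). Counted in common regions with TMM normalization, the difference was 0.77 ± 0.20 at adjusted p = 0.0263, with 1.25% of 13974 genes called. That call was kept without hippocampus replicate 2 (adjusted p = 0.0241) and lost without any of the other 3 libraries, the highest being 0.364 without cortex replicate 1. With 1 or more marker cut sites it was 0.28 ± 0.09 at adjusted p = 0.0574, with 4.47% of genes called. Grm3 was higher in the Pvalb group than in the Adarb2 group in 10 of 10 other draws under each of the 3 settings. It passed in 1 of 10 as first counted (log2 fold change 0.29 to 0.61), in 2 of 10 in common regions (0.34 to 0.82) and in 5 of 10 at the looser limit (0.14 to 0.34).

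The region at the Grm3 start (chr5:9724322-9726697) had 32.7, 48.6, 36.8 and 31.9 CPM in the Pvalb group, 19.9, 28.2, 16.7 and 26.6 CPM in the Adarb2 group and 22.0, 28.6, 10.6 and 22.9 CPM in the Sst group. All 4 Pvalb values were above the Adarb2 and Sst values, but the share of all regions that separated in this way is not given here. The log2 fold change of this region in the Pvalb group over the Adarb2 group was 0.73 ± 0.24 at adjusted p = 0.0943 (edgeR). It was 0.29 to 0.74 in the other draws, of which 0 of 10 passed. Only 1 other Grm3 region was common, 63.0 kb into the gene.

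Grm2 had the fewest cut sites, and its Sst values were 36.7 and 34.3 CPM in cortex but 13.3 and 0 CPM in hippocampus, from 45, 18, 5 and 0 cut sites. In the Adarb2 group it had 19.7, 37.6, 33.0 and 31.3 CPM and in the Pvalb group 26.9, 29.3, 26.2 and 25.5 CPM. The test of whether the Sst over Adarb2 difference itself differed between hippocampus and cortex gave -2.61 ± 0.75 (log2) for Grm2 at adjusted p = 0.640 (edgeR). In the other draws this difference ranged from -1.15 to 0.75 and was below 0 in 3 of 10, so the value of the draw shown lay outside their range. With 1 or more marker cut sites the Sst values were 32.3, 45.0, 29.1 and 15.4 CPM and that difference was -0.74 ± 0.29 at adjusted p = 0.646, with 0.00628% of genes called. A count of 0 in the 17 nuclei of that group allows up to 3 cut sites, or 9.81 CPM, and this limit covers counting error only.

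Grm5, the group I member, had 102, 81.9, 140.5 and 140.7 CPM in the Sst group, 103, 57.7, 131 and 98.3 CPM in the Pvalb group and 99.4, 75.3, 125 and 91.8 CPM in the Adarb2 group, in the order cortex replicates 1 and 2 and hippocampus replicates 1 and 2. The Sst value was above the Adarb2 value in 4 of 4 libraries, with a log2 fold change of 0.22 ± 0.15 at adjusted p = 0.646 (edgeR). The 95% interval of -0.08 to 0.51 leaves differences of up to that size possible. With the looser marker limit it was 0.03 ± 0.08, and in the other draws at the stricter limit it ranged from -0.31 to 0.17 and was above 0 in 6 of 10.

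Grm4 had 53.0, 109, 156 and 111 CPM in the Sst group, 82.8, 131, 138 and 126 CPM in the Pvalb group and 89.9, 132, 151 and 129 CPM in the Adarb2 group. The Sst value was below the Adarb2 value in 3 of 4 libraries and above it in hippocampus replicate 1, with a log2 fold change of -0.31 ± 0.15 at adjusted p = 0.416 (edgeR). With the looser limit it was 0.00 ± 0.08. It was below 0 in 10 of 10 other draws at the stricter limit, from -0.37 to -0.083, and passed in 0 of 10. Pvalb over Adarb2 was also below 0 in 10 of 10, and passed in 3 of them in common regions (-0.62 to -0.29) and in 1 at the looser limit. The only member region called between the marker groups lay at the 3′ end of Grm4 over a coding exon (chr17:27421698-27424005), where 3.51% of 33468 regions were called between Sst and Adarb2 and 1 of 14 member regions was. It had 5.71, 13.3, 5.30 and 3.27 CPM in the Sst group, from 7, 7, 2 and 1 cut sites, against 18.1, 26.3, 24.3 and 14.3 CPM in the Adarb2 group. Every Sst value was below every Adarb2 value, and the share of all regions that separated in this way is not given here. The log2 fold change was -1.55 ± 0.47 at adjusted p = 0.0479 (edgeR). The call was lost without any 1 of the 4 libraries, at adjusted p = 0.0688 to 0.328. In the other draws the region was lower in the Sst group in 10 of 10 (log2 fold change -4.30 to -0.83) and passed in 6 of 10. In the draw shown, between Pvalb and Adarb2 and between Sst and Pvalb, 0 of 14 member regions passed, where 2.06% and 1.79% of regions did. In the other draws 13 to 17 member regions were tested, and 0 or 1 of them passed in each. A member region passed in 5 of 10 draws between Pvalb and Adarb2, where 1.78% to 3.42% of all regions did, and in 3 of 10 between Sst and Pvalb, where 1.53% to 3.25% did.

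Grm8 had 57.1, 36.2, 63.6 and 62.2 CPM in the Sst group, 59.3, 13.7, 67.1 and 40.9 CPM in the Pvalb group and 67.4, 25.4, 62.7 and 60.2 CPM in the Adarb2 group. The values of cortex replicate 2 were the lowest of each group, as in the whole library. The log2 fold change was 0.01 ± 0.21 for Sst over Adarb2 and -0.25 ± 0.18 for Pvalb over Adarb2, at adjusted p = 0.995 and 0.765 (edgeR). The interval of the second ran from -0.60 to 0.11. Sst over Pvalb was 0.26 ± 0.22 at adjusted p = 0.735 (edgeR). In the other draws it was above 0 in 10 of 10, from 0.26 to 0.70 at the stricter limit, where it passed in 0, and from 0.19 to 0.43 at the looser one, where it passed in 6.

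Of all 6 genes, then, neither the difference between marker groups nor its dependence on brain region passed at the stricter marker limit in own peaks in the draw shown, and in common regions Grm3 alone passed, between Pvalb and Adarb2. For the dependence on brain region 0 of 14680 genes were called by edgeR for either contrast, with 961 and 318 genes at an unadjusted p under 0.05, and 0 were called by DESeq2. The oligodendrocyte list summed to 62.9 to 117 CPM in the Sst groups, 71.4 to 180 CPM in the Pvalb groups and 67.7 to 158 CPM in the Adarb2 groups. At the stricter limit in own peaks the groups were also fitted without oligodendrocyte-leaning nuclei, and no member passed there. The part of the list in the members' values was not tested further.

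**Figure D5:**
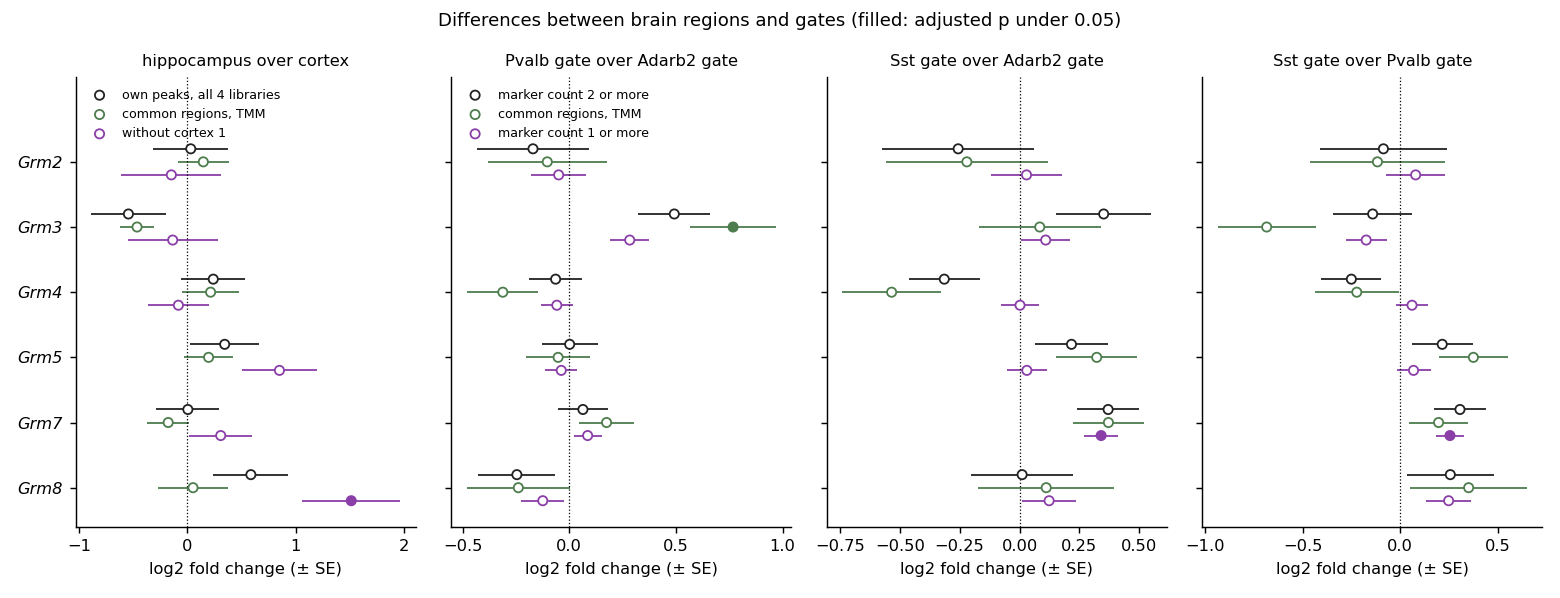
Log2 fold change with SE (horizontal axis) of the 6 genes between hippocampus and cortex and between marker groups (gates), under 3 settings each, with filled circles where the adjusted p was under 0.05. The filled circles are Grm8 without cortex replicate 1 in the first panel, Grm3 in common regions for Pvalb over Adarb2, and Grm7 at a marker count of 1 or more for Sst over both other groups.

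A list of 23 other genes of the same signalling pathway was measured alongside: the receptor Grm6, Homer and Shank scaffolds, G protein subunits, phospholipases and other partners. Between hippocampus and cortex 0 of the 23 passed. Between the marker groups 22 were tested, of which 1 was higher and 0 lower in the Sst group than in either other group, and 0 passed between Pvalb and Adarb2. The list's median log2 fold change was -0.09 for Sst over Adarb2 and 0.01 for Sst over Pvalb, against -0.02 and -0.01 for all genes.

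The gene called was Elfn1, which encodes the postsynaptic adhesion protein that binds mGluR7. It had 244, 135, 241 and 183 CPM in the Sst group, 98.9, 105, 125 and 139 CPM in the Pvalb group and 140, 124, 134 and 134 CPM in the Adarb2 group. The log2 fold changes were 0.63 ± 0.13 over Adarb2 (edgeR, adjusted p = 0.0032) and 0.85 ± 0.14 over Pvalb (adjusted p = 0.00023), with the Sst value highest in 4 of 4 libraries. Without cortex replicate 1 both calls were lost, at adjusted p = 0.208 over Adarb2 and 0.140 over Pvalb (edgeR). The call over Adarb2 was also lost without hippocampus replicate 1 (adjusted p = 0.0824). With 1 or more marker cut sites both calls were kept whichever library was left out, at adjusted p of at most 0.0028. In the 10 other draws Elfn1 was higher in the Sst group in all, and passed over Adarb2 in 4 and over Pvalb in 9 at the stricter limit, and in 10 of 10 over either group at the looser one.

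With the looser marker limit 1 of 23 pathway genes, Elfn1, was higher and 2 were lower in the Sst group than in the Adarb2 group, where 4.74% of all genes were called. Dgkz, a diacylglycerol kinase gene, was lower, at -0.29 ± 0.07 (edgeR, adjusted p = 0.0067), and so was Homer2, a scaffold that binds group I receptors, at -0.32 ± 0.10 (adjusted p = 0.0486). In the Pvalb group 2 of 23 were lower than in the Adarb2 group, with 4.47% of all genes called, Elfn1 at -0.22 ± 0.07 (adjusted p = 0.0418) and Homer2 at -0.33 ± 0.09 (adjusted p = 0.0142). Between Sst and Pvalb, with 5.82% of all genes called, 1 of 23 was higher, Elfn1, and 1 lower, Dgkz at -0.43 ± 0.07 (adjusted p = 4.47e-05), which was called in 10 of 10 other draws. At this limit the other draws called Dgkz lower in 9 of 10 and Homer2 in 4 of 10 between Sst and Adarb2, and Elfn1 in 0 of 10 and Homer2 in 1 of 10 between Pvalb and Adarb2.

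The genes whose pattern over the 12 sums of marker group and library was most like that of a member were sought among 12073 genes of at least 20 CPM, by Pearson's r of log2(CPM + 1) centred on each library. They were Clcn3 (r = 0.996) and 4921524J17Rik (0.992) for Grm2, Pdcl3 (0.895) and Ypel5 (0.890) for Grm3, and Mob3b (0.967) and Nt5dc2 (0.951) for Grm4. For Grm5 they were Ace (0.946) and Gpatch3 (0.942), for Grm7 Abhd14a (0.953) and Cct5 (0.922), and for Grm8 Tnni3k (0.957) and Sntg2 (0.954). These values describe 12 points of a single draw that share 4 libraries, and the lowest of the 12 for Grm2 was its 0 in the Sst group of hippocampus replicate 2.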

How the data were processed

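Accessible chromatin was profiled in nuclei of 4 libraries with the 10x Genomics Chromium assay. The values deposited by the authors were raw counts of cut sites for each peak in each nuclear barcode, with peaks listed for each library separately and no normalization. Per the labels, reads had been processed with Cell Ranger ATAC 1.2.0 on GRCm38 (mm10), and peak settings were not given in the sources used here. A peak called in 1 library only leaves the others without a count there, which affects every gene-level sum. The deposited motif count tables were not used.

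Counts were summed over the nuclei of a library, or of a marker group within it, for 21938 protein-coding genes of GENCODE M21, using a library's peaks that overlapped (1 bp or more) the gene or the 2 kb upstream of its start. Peaks of the 4 libraries were merged into 185260 regions, of which 46698 were common. Sums were tested with edgeR 4.0.16 in R 4.3.3 (robust quasi-likelihood F test, two-sided, filterByExpr, library totals as size, Benjamini-Hochberg over all genes or regions tested, threshold 0.05). Library was a block between marker groups, and the fit between brain regions had none. DESeq2 1.42.0 was an alternative, and the scripts were tested on simulated data with the same spread for every gene. There the fits between marker groups called most changed genes, and the fit between brain regions, with 2 libraries each, called none of them. The power for single genes is not given by this. Cells are not replicates, so all tests were over libraries.

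For marker groups, each nucleus was thinned to 5000 cut sites, which left out 2, 1026, 890 and 178 nuclei of cortex replicates 1 and 2 and hippocampus replicates 1 and 2. The limits first written for these groups asked for an Adarb2 count under the library median, which was 0 and left 0 nuclei. They were replaced, with only group sizes and marker genes in view, by 2 or more cut sites in a gene and 0 in the other 2. No doublet caller was run, and 5 to 32 nuclei per library with 2 or more cut sites in more than 1 marker fell in no group. Group membership rests on 1 seeded random draw, which was kept as first made, and 10 other draws, added after the data were seen, were fitted in the same way.

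The 6 genes, the marker lists, the pathway list and the comparisons were chosen with earlier results of these data known. All 6 genes are named. Pathway genes are named where they passed a test, at most the 2 common regions of lowest p per gene and contrast are named, and the 2 genes of highest r are given as most alike in pattern. Some genes of the wider pathway and marker lists are not reported here. Sequences are from RefSeq and the GRCm38 genome, and no promoter entry was used for Grm4 and Grm5. Counting intervals treat cut sites as independent and cover counting error only.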

Additional observations from a re-analysis of the deposited data

How the results depend on the processing

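The limits of these data are few libraries (2 per brain region), unequal depth with separately called peaks, and small Sst groups. Between hippocampus and cortex 20 genes and 275 regions were called. The count of genes was 1 with TMM normalization, 0 in common regions with TMM, 6 within 2 kb of the gene start, 1 with covered length as an offset, 9 without oligodendrocyte-leaning nuclei and 298 with DESeq2 (219 higher and 79 lower, against 12 and 8). The count of regions was 0 with TMM and 34 among regions at least 50% covered. The labels number the replicates but do not pair them, and the deviations of same-numbered libraries correlated at 0.18 in own peaks and -0.10 in common regions over 2 pairs. With the replicate number as a block 0 genes and 0 regions were called, and also 0 genes in common regions with TMM. The crossed pairing, added after the data were seen, gave 14. Leaving out 1 library gave 6 to 725 genes and 35 to 4741 regions, the highest without cortex replicate 1.

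Between marker groups 179 genes (Sst over Adarb2), 149 (Pvalb over Adarb2) and 187 (Sst over Pvalb) were called. In the same order the counts were 6, 28 and 6 within 2 kb of the gene start, 5, 9 and 5 after thinning to 2000 cut sites, 755, 712 and 927 with 1 or more marker cut sites, and 314, 226 and 324 with DESeq2. Without library as a replicate block they were 1, 0 and 0. Leaving out 1 library gave 17 to 125, 7 to 84 and 26 to 129, each lowest without cortex replicate 1. Of regions, 1176, 690 and 600 were called. They were 168, 1 and 27 without the replicate block and 606, 379 and 360 among regions at least 50% covered, and the first was 1773 without the low-count filter. Leaving out 1 library gave 136 to 901, 17 to 393 and 71 to 536. The dependence of a difference on brain region, at 0 genes, gave 1 for Sst over Adarb2 without the low-count filter, and 1 for either contrast with 1 or more marker cut sites.

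Members' log2 fold changes of hippocampus over cortex turned sign with covered length as an offset in all 6 genes (Grm2 -0.021, Grm3 0.12, Grm4 -0.036, Grm5 -0.19, Grm7 -0.090, Grm8 -0.13) and within 2 kb of the start in Grm2 (-0.11), Grm5 (-0.20), Grm7 (-0.33) and Grm8 (-0.088). In common regions Grm7 was at -0.18, and at -0.17 there with the replicate block. Between marker groups the sign turned with 1 or more marker cut sites for Grm2 (Sst over Adarb2 0.029, Sst over Pvalb 0.079), Grm4 (0.0020 and 0.060) and Grm5 (Pvalb over Adarb2 -0.038). It also turned within 2 kb of the start for Grm3 (Sst over Adarb2 -0.061) and Grm8 (-0.16), in common regions for Grm5 (Pvalb over Adarb2 -0.052), and after thinning to 2000 cut sites for Grm7 (Pvalb over Adarb2 -0.11). Without the replicate block it turned for Grm5 (Pvalb over Adarb2 -0.015) and Grm8 (Sst over Adarb2 -0.022), and the Grm4 exon region reached adjusted p = 0.183 (edgeR). None of these values had passed the test except that of the Grm4 region, and the cause was not tested. Over 10 other random draws of the thinning, added after the data were seen, the median was 0.059 for Grm2 and -0.016 for Grm5 in Sst over Pvalb, and 0.17 for the dependence of the Grm2 Sst over Adarb2 difference on brain region, each opposite in sign to the draw reported. The median number of genes called between Sst and Adarb2, Pvalb and Adarb2, and Sst and Pvalb was 167, 145.5 and 204.5, and of regions 1171.5, 779.5 and 768.5.

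With each library left out in turn, hippocampus over cortex ranged from -0.15 to 0.23 in Grm2, from -0.083 to 0.65 in Grm4, from -0.028 to 0.85 in Grm5 and from -0.25 to 0.31 in Grm7. Sst over Adarb2 ranged from -1.01 to 0.073 in Grm2 and from -0.099 to 0.18 in Grm8, Sst over Pvalb from -0.64 to 0.16 in Grm2 and from -0.37 to 0.033 in Grm3, and Pvalb over Adarb2 from -0.033 to 0.079 in Grm5. Of the single-gene and single-region values under the alternatives, 363 kept their direction and side of the threshold, 41 turned sign, 10 passed newly and 17 no longer passed.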
